A study of Mus musculus with 16 samples.

Results

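The 8 genes described here are Ace, Defb29, A4galt, Slc44a3, Adgrg1, Tspan11, Kif21b and Kctd14, out of 18635 genes with a count in the series. They were picked by name because their RNA was strongly lower in Trp53bp1 knockout samples of the mouse ovarian cancer line ID8 and not in those of the mouse pancreatic cancer line KPC. Their changes in both lines, and the difference between the lines, are therefore given as description, with standard errors and without a test. All 8 were found by gene symbol and all 8 passed the filter on low counts in ID8. For 7 of them a value was listed in all 4 count tables, and Defb29 was listed for ID8 only.

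Bulk RNA was sequenced from 4 groups of samples, which the labels describe as tumours of ID8 or KPC cells implanted into syngeneic mice. The groups were ID8 Trp53bp1 KO (3 samples), ID8 WT (3 samples), KPC Trp53bp1 KO (5 samples) and KPC WT (5 samples), and neither a treatment nor the age of the mice is given in the labels. Trp53bp1 encodes 53BP1, a chromatin-binding factor that steers the repair of DNA double-strand breaks. The labels call the samples biological replicates of a tumour, while the protocol speaks of RNA taken from cells, and nothing says how many knockout clones were used. A clone's own differences and the knockout cannot be told apart in such a design. Library totals lay between 17902867 and 19727536 counts, and levels are given as CPM (counts relative to the library total) scaled by edgeR's trimmed mean of M-values over the 16 libraries. Trp53bp1 itself averaged 18.86 ± 0.502 CPM in ID8 KO and 47.42 ± 2.78 CPM in ID8 WT (SD, n = 3 each), a log2 change of -1.33 (SE 0.0667, edgeR adjusted p = 1.15e-10). It averaged 33.79 ± 3.79 CPM in KPC KO and 50.26 ± 2.93 CPM in KPC WT (SD, n = 5 each), a log2 change of -0.59 (SE 0.0898, edgeR adjusted p = 0.004).

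In the ID8 libraries, markers of leukocytes, endothelium and red blood cells were at or near 0. Of 9 leukocyte markers, Ptprc, Cd3e, Cd4, Cd8a, Adgre1 and Itgam had 0 counts in every ID8 library, and the summed level was 0.0525 to 0.315 CPM in ID8 KO and 0 to 0.108 CPM in ID8 WT. The 6 endothelial markers summed to 1.69 to 1.94 CPM in ID8 KO and 2.27 to 2.75 CPM in ID8 WT, with Cdh5, Kdr and Cldn5 at 0. In that sum Pecam1 averaged 1.087 CPM in ID8 KO and 2.484 CPM in ID8 WT. Tek went the opposite way, at 0.7532 CPM in ID8 KO and 0.03605 CPM in ID8 WT. The red blood cell genes Hbb-bs and Hba-a1 had 0 counts in ID8 and summed to 52.0 to 149.0 CPM in KPC KO and 55.3 to 142.0 CPM in KPC WT. The fibroblast markers Pdgfra, Col1a1 and Dcn were present in ID8, with a sum of 704 to 755 CPM in KO and 652 to 693 CPM in WT, and summed to 4680 to 6550 CPM in KPC KO and 3900 to 6470 CPM in KPC WT. Within the ID8 sum the markers did not move alike. Col1a1 averaged 83.92 CPM in ID8 KO and 179.5 CPM in ID8 WT, Dcn 599.7 and 451.6 CPM, and Pdgfra 41.29 and 40.24 CPM. In KPC the leukocyte markers summed to 560 to 1090 CPM in KO and 323 to 835 CPM in WT, and the endothelial markers to 280 to 399 CPM in KO and 242 to 379 CPM in WT. KPC libraries also held skeletal muscle RNA, with 4 markers summing to 4.66 to 4740 CPM in KO and 387 to 23600 CPM in WT. The part of host cells in any KPC value below was not tested. Of the ovarian surface and mesothelial markers, Wt1 averaged 757.5 CPM in ID8 KO and 622.7 CPM in ID8 WT, against 1.091 CPM in KPC KO and 0.2463 CPM in KPC WT. Upk3b averaged 3687 CPM in ID8 KO and 2304 CPM in ID8 WT, against 0.2819 CPM in KPC KO and 1.775 CPM in KPC WT. Msln went the other way between the lines, at 367.3 CPM in ID8 KO and 383.5 CPM in ID8 WT, against 1438 CPM in KPC KO and 1274 CPM in KPC WT. The epithelial markers Krt8, Krt18, Krt19 and Epcam averaged lower in KO than in WT in ID8, and higher in KO in KPC. Epcam averaged 0.859 CPM in ID8 KO and 3.295 CPM in ID8 WT, against 420.9 CPM in KPC KO and 176.0 CPM in KPC WT. The 5 pancreatic ductal markers summed to 24.5 to 28.9 CPM in ID8 KO and 31.7 to 33.9 CPM in ID8 WT, with Pdx1 at 0, against 2160 to 2870 CPM in KPC KO and 1560 to 2120 CPM in KPC WT.

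The 8 genes belong to different families. Ace encodes angiotensin-converting enzyme, a membrane peptidase that makes angiotensin II and breaks down bradykinin, and Defb29 encodes a beta-defensin, one of the small cationic secreted peptides of epithelial defence. A4galt encodes the glycosyltransferase that turns lactosylceramide into the glycolipid Gb3 (CD77), and Slc44a3 a member of the choline transporter-like family. Adgrg1 (GPR56) is an adhesion G protein-coupled receptor that binds collagen III and transglutaminase 2, and Tspan11 is a tetraspanin, a class of membrane organisers. Kif21b is a kinesin motor that also regulates microtubule growth, and Kctd14 belongs to the BTB-domain KCTD family, whose best-known members serve as adaptors of cullin ubiquitin ligases.

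The genes lie on 8 chromosomes (2 for Defb29, 3 for Slc44a3, 6 for Tspan11, 15 for A4galt, 11 for Ace, 8 for Adgrg1, 1 for Kif21b and 7 for Kctd14), so no 2 of them are neighbours. Promoter sequence of the 250 bases upstream of an annotated start was taken from RefSeq on GRCm38.p6, an older build than the one the counts were made on. The table held 6 of the 8 genes, with no entry for Kif21b and Kctd14. The windows of 4 of the genes, which lie wholly upstream of the annotated gene, are shown so that the start regions of genes lost together can be compared. They are written 5′ to 3′ on the gene's strand, and capitals mark matches on either strand to TATAAA (the TATA box), CCAAT (the CCAAT box), GGGCGG (the GC box) or ACGTG (the core of the hypoxia response element), overlapping matches counted separately.
Ace, chr11:105967698-105967947, plus strand: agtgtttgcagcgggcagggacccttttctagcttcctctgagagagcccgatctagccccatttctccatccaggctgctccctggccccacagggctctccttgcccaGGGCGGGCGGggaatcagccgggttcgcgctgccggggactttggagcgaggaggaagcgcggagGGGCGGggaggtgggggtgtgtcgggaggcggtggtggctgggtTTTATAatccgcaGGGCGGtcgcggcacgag
Defb29, chr2:152540042-152540291, minus strand: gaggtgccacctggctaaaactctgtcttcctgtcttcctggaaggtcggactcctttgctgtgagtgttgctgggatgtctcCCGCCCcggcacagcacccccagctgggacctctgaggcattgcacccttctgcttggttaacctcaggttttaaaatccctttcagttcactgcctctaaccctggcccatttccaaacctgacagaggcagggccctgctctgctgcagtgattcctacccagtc
A4galt, chr15:83251730-83251979, minus strand: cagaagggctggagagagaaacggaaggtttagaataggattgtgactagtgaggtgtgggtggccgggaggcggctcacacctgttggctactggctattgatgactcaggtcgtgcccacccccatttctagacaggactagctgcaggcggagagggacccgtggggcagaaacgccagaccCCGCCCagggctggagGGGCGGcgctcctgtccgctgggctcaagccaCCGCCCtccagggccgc
Slc44a3, chr3:121532345-121532594, minus strand: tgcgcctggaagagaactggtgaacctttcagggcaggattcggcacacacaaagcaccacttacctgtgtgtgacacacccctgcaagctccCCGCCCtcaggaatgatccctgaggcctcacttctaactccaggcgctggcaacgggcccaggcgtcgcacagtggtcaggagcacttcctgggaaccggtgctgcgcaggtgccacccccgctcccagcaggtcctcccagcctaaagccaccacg

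All 4 windows shown held GGGCGG, and all 8 windows found for the 6 genes had more GC than the median window of the table. The windows not shown, at the other Ace start and at the starts of Adgrg1 and Tspan11, held no GGGCGG match. GGGCGG was thus not shared by all the genes with a window. The Ace window was rich in GC (67.2%) with 19 CpG dinucleotides, 4 GGGCGG matches and 1 TATAAA match on the other strand close to the start. The A4galt window had 64.0% GC, 13 CpG and 3 GGGCGG matches, and the Slc44a3 window 62.8% GC, 11 CpG and 1 GGGCGG match. The Defb29 window had 56.4% GC, 3 CpG and 1 GGGCGG match. Over all 32851 windows of the table the median was 52.4% GC and 6 CpG. GGGCGG was present in 32.7% of them, TATAAA in 12.4%, CCAAT in 33.8% and ACGTG in 16.6%. ACGTG occurred in 0 of the 8 windows found for the 6 genes. These matches describe the letters only.

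In ID8 the knockout level of the 8 genes was between 0.435% and 16.7% of the wild-type level, and every KO library lay below every WT library for each gene. Among all 11933 genes tested in ID8, 25.5% were called lower (edgeR quasi-likelihood test, adjusted p under 0.05) and 50.8% in either direction, and 4.11% were called with a log2 change of -1 or less. All KO libraries lay below all WT libraries for 29.3% and above them for 28.7%. The 8 were chosen from that contrast, so nothing is read from these counts. By size of decrease they ranked 4 (Defb29), 17 (Tspan11), 20 (A4galt), 22 (Slc44a3), 46 (Kctd14), 58 (Kif21b), 60 (Ace) and 101 (Adgrg1). In these bulk samples, fewer cells that express a gene and less of its RNA per cell cannot be told apart.

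**Figure D1:**
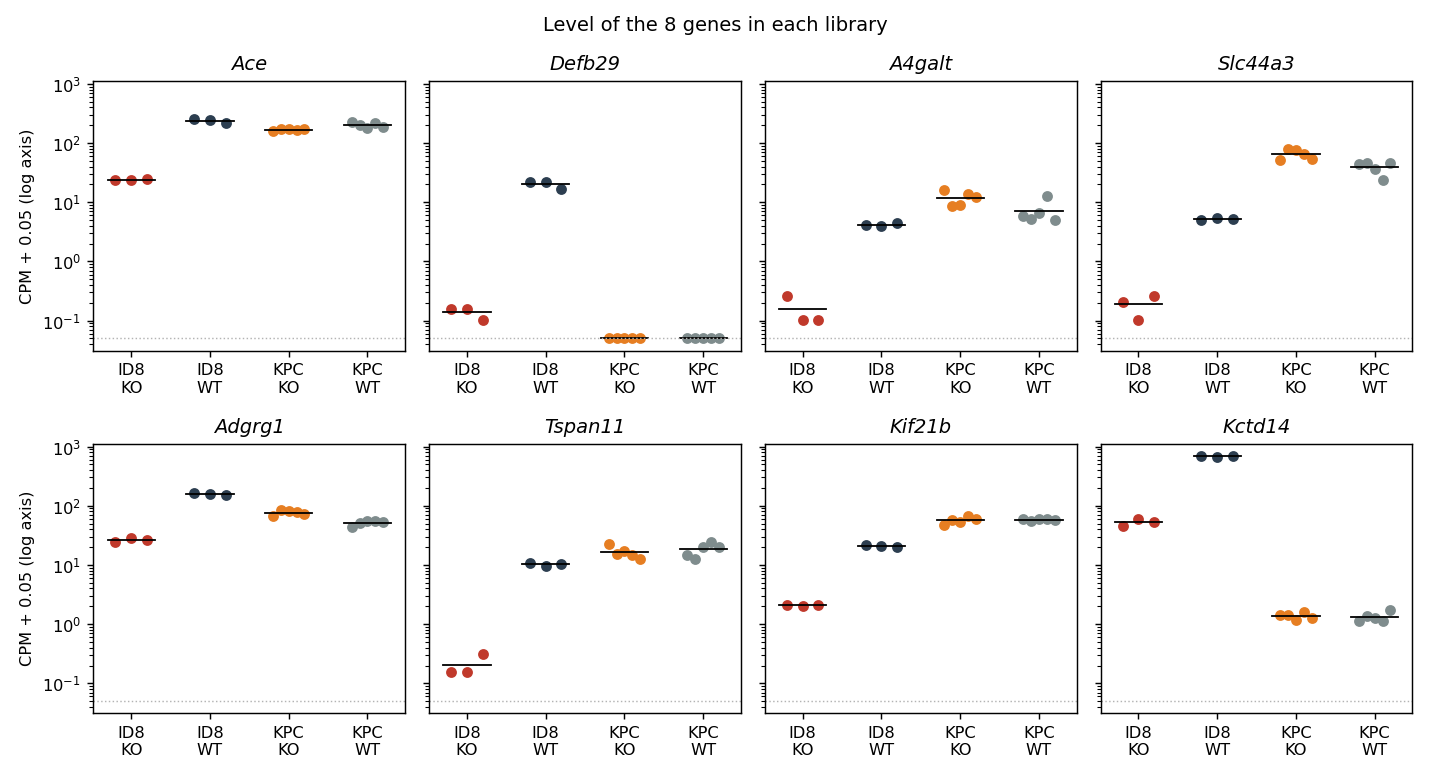
Level of each of the 8 genes in every library, as CPM plus 0.05 on a log axis, with 1 point per library, a black line at the group mean and a dotted line at a level of 0. In each panel the 3 ID8 KO points lie below the 3 ID8 WT points, while the KPC KO and KPC WT means differ by less than 2-fold in the 7 genes with KPC counts, and Defb29 is at 0 in all KPC libraries.

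Ace, the peptidase, had 23.29, 23.39 and 24.88 CPM in the ID8 KO libraries, against 251.4, 245.3 and 217.1 CPM in ID8 WT. The KO mean was 9.98-fold lower than the WT mean, a log2 change of -3.31 (SE 0.0647), with 444 to 472 counts behind each KO value, so the transcript was reduced and still well measured. In KPC it had 156.6, 173.5, 174.8, 163.1 and 171.2 CPM in KO, against 224.0, 203.7, 178.7, 217.3 and 183.2 CPM in WT. KPC KO was 83.4% of KPC WT without overlap of the groups, a log2 change of -0.28 (SE 0.0733). Ace is thus the one gene of the 8 whose KPC libraries also separated downwards, by a much smaller step.

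Defb29, the beta-defensin, was close to absent after the knockout. The ID8 KO libraries had 2, 2 and 1 counts, against 407, 404 and 308 counts in ID8 WT, or 0.1049, 0.1051 and 0.0527 CPM in KO and 21.93, 21.82 and 16.68 CPM in WT. The 5 KO counts against 1119 WT counts give a KO level of 0.435% of WT, with an exact 95% interval of 0.141% to 1.02% that covers counting error only. The fitted log2 change was -7.74 (SE 0.253). Fitted log2 changes of genes with so few KO counts, here and for A4galt, Slc44a3 and Tspan11, depend on the prior count of the fit, and the count ratio with its interval is the measured value. In KPC the gene had 0 counts in all 10 libraries of both genotypes, where 3 counts would be at most 0.1676 CPM, so KPC gives no comparison for it.

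A4galt, the Gb3 synthase, had 4, 1 and 1 counts in ID8 KO, against 76, 73 and 81 counts in ID8 WT. That is 2.54% of WT (exact 95% interval 0.922% to 5.61%), a fitted log2 change of -5.21 (SE 0.32). In KPC the gene was not lost, with 16.09, 8.714, 8.857, 13.88 and 12.23 CPM in KO, against 5.719, 5.08, 6.46, 12.46 and 4.968 CPM in WT. The log2 change was 0.77 (SE 0.271), a 1.72-fold higher mean in KO with overlapping groups. The overlap came from WT replicate 4 at 12.46 CPM, and without that library the log2 change was 1.07. That library also had the highest Ptprc level of the KPC WT group, and the part of leukocytes in its A4galt level was not tested.

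Slc44a3, the choline transporter-like gene, had 3, 1 and 4 counts in ID8 KO, against 92, 99 and 95 counts in ID8 WT. The KO level was 2.72% of WT (exact 95% interval 1.16% to 5.44%), a fitted log2 change of -5.13 (SE 0.279). KPC went the other way, with 50.93, 78.21, 74.7, 65.56 and 53.93 CPM in KO, against 43.33, 45.19, 36.3, 23.93 and 45.98 CPM in WT. Every KPC KO library was above every KPC WT library, 1.66-fold in the mean, a log2 change of 0.71 (SE 0.194).

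Adgrg1, the adhesion receptor, had the mildest loss of the 8. It had 24.39, 28.86 and 25.88 CPM in ID8 KO, against 163.8, 158.0 and 152.5 CPM in ID8 WT, so KO was 16.7% of WT and the log2 change -2.58 (SE 0.0623). In KPC it had 66.53, 84.59, 81.51, 77.51 and 73.46 CPM in KO, against 43.88, 50.9, 54.73, 55.59 and 52.74 CPM in WT. The KPC groups did not overlap, with KO 1.49-fold higher and a log2 change of 0.55 (SE 0.0867). Natural killer cells and cytotoxic T cells also carry this receptor in humans. The leukocyte markers, whose sums are given above, covered a higher range in KPC KO, and Ptprc averaged 161.7 ± 54.0 CPM in KPC KO and 77.05 ± 39.7 CPM in KPC WT (SD, n = 5 each), with overlapping groups and no call (edgeR adjusted p = 0.0596). Nkg7, Cd3e and Cd8a, which mark the named cells more closely, also averaged higher in KPC KO, with log2 changes of 1.44, 1.5 and 0.82. Their groups overlapped as well, and they were not called (edgeR adjusted p = 0.15, 0.131 and 0.392). The part of these cells in the KPC level of Adgrg1 was not tested.

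Tspan11, the tetraspanin, had 2, 2 and 5 counts in ID8 KO, against 202, 179 and 193 counts in ID8 WT. The KO level was 1.53% of WT (exact 95% interval 0.694% to 2.92%), a fitted log2 change of -5.97 (SE 0.227). In KPC it had 22.9, 15.14, 17.25, 14.87 and 12.7 CPM in KO, against 14.48, 12.41, 20.18, 24.34 and 19.77 CPM in WT. The KPC KO range lay within the KPC WT range, with a log2 change of -0.16 (SE 0.196).

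Kif21b, the kinesin, had 2.046, 1.997 and 2.055 CPM in ID8 KO (39, 38 and 39 counts), against 21.55, 20.79 and 19.65 CPM in ID8 WT. KO was 9.84% of WT and the log2 change -3.34 (SE 0.108), and the 3 KO libraries lay close together. In KPC it had 47.17, 58.25, 53.76, 66.0 and 59.53 CPM in KO, against 60.18, 55.04, 58.74, 60.31 and 56.23 CPM in WT. The KPC groups overlapped, with a log2 change of -0.05 (SE 0.086). Kif21b is also expressed in T cells, and the part of leukocytes in its KPC level was not tested.

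Kctd14 had 45.32, 60.13 and 52.33 CPM in ID8 KO, against 691.6, 656.6 and 686.7 CPM in ID8 WT. KO was 7.75% of WT, a log2 change of -3.68 (SE 0.084). In KPC the gene was barely expressed in either genotype, at 1.363, 1.4, 1.126, 1.543 and 1.234 CPM in KO, against 1.063, 1.309, 1.202, 1.09 and 1.691 CPM in WT. These rest on 22 to 28 counts per KO library and 21 to 32 counts per WT library, and the log2 change was 0.05 (SE 0.2).

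**Figure D2:**
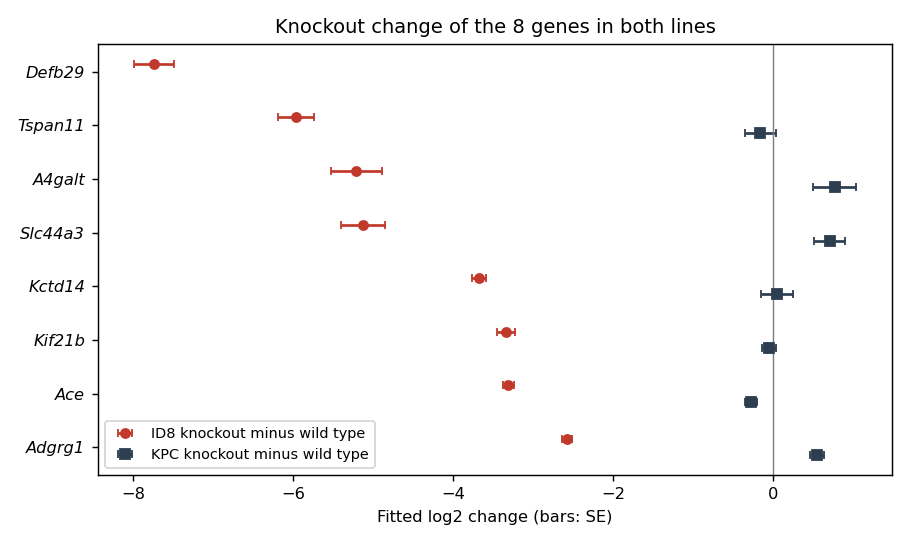
Fitted log2 change of each gene, knockout minus wild type, in ID8 (circles) and KPC (squares), with bars of 1 SE, ordered by the ID8 change. The ID8 changes run from -7.74 for Defb29 to -2.58 for Adgrg1, and the KPC changes from -0.28 for Ace to 0.77 for A4galt, with no KPC point for Defb29.

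The KPC behaviour of the 7 genes measured there was of 3 kinds. Adgrg1 and Slc44a3 were higher in all KO libraries, Ace was lower in all, and the groups of the other 4 overlapped. Among all 14283 genes tested in KPC, 5.75% had every KO library above every WT library and 6.04% every KO library below, and 6.67% were called higher and 7.01% lower, or 13.7% in all. The choice of the 8 used this contrast as well, so nothing is read from the counts. The KPC change minus the ID8 change lay between 3.06 (Ace) and 6.0 (A4galt) on the log2 scale for the 7 genes. Over 14921 genes this difference was called positive for 11.6%, negative for 10.3% and either for 21.8%. In ID8, 101 genes had a log2 change of -2.58 or less, the 8 among them, and all 101 were called. Of these, 80 were tested in KPC, where 6 were called lower, 10 higher and 64 neither, with a median KPC log2 change of 0.14 against -0.0124 over all genes tested in KPC. The 80 include the 7 genes described here, which were chosen as not strongly lower in KPC, so these values partly follow from that choice.

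In wild type, 7 of the 8 genes had levels that did not overlap between the lines, 3 higher and 4 lower in ID8. Over the 14921 genes of the test across both lines, 32.7% had every ID8 WT library above every KPC WT library and 44.7% every ID8 WT library below, so such a separation was common. Kctd14 was 534-fold higher in ID8 WT than in KPC WT, Adgrg1 was 3.07-fold higher, and Defb29 had counts in ID8 alone. Ace was at a like level, 1.18-fold, with overlapping groups. Kif21b, Tspan11, A4galt and Slc44a3 were lower in ID8 WT, at 0.356, 0.567, 0.597 and 0.132 of the KPC WT level. Between the knockouts, Ace in ID8 KO was at 14.2% of its KPC KO level, Adgrg1 at 34.4%, Kif21b at 3.57%, Tspan11 at 0.952%, A4galt at 0.879% and Slc44a3 at 0.217%. Kctd14 in ID8 KO was still far above KPC KO, at 52.6 ± 7.41 CPM in ID8 KO (SD, n = 3) and 1.333 ± 0.16 CPM in KPC KO (SD, n = 5). The line comparisons set different tissues and host cell shares against each other, and they were not tested.

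Across the 16 libraries the 8 genes fell into different patterns by the correlation of log2 CPM over these 16 points, given as a description because the libraries share a line and a genotype. The 8 were also chosen from changes between these same libraries. A high r among them follows in part from that choice, and nothing on shared regulation is read from it. Ace, Kif21b, Tspan11, A4galt and Slc44a3 went together, with Pearson's r of 0.834 to 0.982 over their 10 pairs. Kctd14 and Defb29 went with each other (r = 0.89), and Kctd14 ran against Slc44a3 (r = -0.69). Adgrg1 lay between them, with r of 0.771 to Ace and 0.694 to Defb29. Genes close in pattern were sought among those tested across both lines with a mean log2 CPM of 1 or more. Predicted genes, Rik genes and pseudogenes were left out. The closest were Ttc38 and Pmaip1 to Kif21b (both r = 0.995), and Ttc38 (0.991) and Myl9 (0.989) to Slc44a3. Sipa1l2 and Pmaip1 were closest to Tspan11 (both 0.982), and Ripk3 and Adm to A4galt (both 0.984). Pmaip1, which encodes the BH3-only protein Noxa, had 0 counts in ID8 KO and averaged 9.83 CPM in ID8 WT, 54.46 CPM in KPC KO and 49.49 CPM in KPC WT. Ripk3, a kinase of necroptosis, averaged 0.4206 CPM in ID8 KO, 10.73 CPM in ID8 WT, 44.06 CPM in KPC KO and 30.83 CPM in KPC WT. The closest to Ace were Gpc4 (0.971) and Hk1 (0.964), and to Adgrg1 Rundc3a (0.947) and Trerf1 (0.931). Kctd14 was closest to Ints4 (0.996) and Pcbp2 (0.994), and Defb29 to Pafah1b3 (0.967) and Hpcal1 (0.953).

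The genes next to the 8 were examined by gene order, taking 5 protein-coding genes on each side from the RefSeq table. Of these 80 neighbours 52 were tested in ID8, and 24 of them (46.2%) were called lower and 9 higher, against 25.5% and 25.4% of all genes tested, with a median log2 change of -0.22 against 0.0062. In most cases the step was far smaller than that of the gene beside them. Beside A4galt, 6 of 7 tested were called lower, with a median of -0.45, and chromosome 15 as a whole had 67.7% of its 474 tested genes called lower. Leaving the A4galt neighbours out, 18 of 45 were called lower. Cyb5r3, the nearest to A4galt and an electron-transfer reductase, averaged 444.6 ± 5.34 CPM in ID8 KO and 611.2 ± 11.1 CPM in ID8 WT (SD, n = 3 each), a log2 change of -0.45 (SE 0.0444, edgeR adjusted p = 3.23e-07).

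Around Ace, 4 of 8 tested neighbours were called lower and 2 higher. The nearest, Cyb561 (a cytochrome b561 of secretory vesicles), averaged 117.1 ± 2.2 CPM in ID8 KO and 167.2 ± 0.841 CPM in ID8 WT (SD, n = 3 each), a log2 change of -0.51 (SE 0.0437, edgeR adjusted p = 7.27e-08). Ace3, on the other side of Ace and related to it in sequence, had 0 counts in all ID8 libraries. Around Kctd14, 5 of 9 were called lower and 1 higher. Ints4, a subunit of the Integrator complex, averaged 69.99 ± 2.56 CPM in ID8 KO and 105.6 ± 3.2 CPM in ID8 WT (log2 -0.59, SE 0.0503, edgeR adjusted p = 6.96e-08), and Aamdc averaged 12.15 ± 0.494 CPM in ID8 KO and 27.4 ± 2.25 CPM in ID8 WT (log2 -1.17, SE 0.08, edgeR adjusted p = 4.76e-09; SD, n = 3 each). Thrsp, on the other side of Kctd14, was too low in ID8 to be tested.

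Around Kif21b, 3 of 5 tested neighbours were called lower, and Pkp1, 5 places away, fell as steeply as Kif21b. Pkp1 encodes plakophilin 1 of desmosomes and averaged 1.665 ± 0.368 CPM in ID8 KO and 20.05 ± 2.04 CPM in ID8 WT (SD, n = 3 each), a log2 change of -3.58 (SE 0.138, edgeR adjusted p = 3.83e-12). Inava, 2 places away on the other side and a regulator of cell junctions and innate signalling, averaged 1.209 ± 0.317 CPM in ID8 KO and 4.445 ± 0.888 CPM in ID8 WT (log2 -1.87, SE 0.214, edgeR adjusted p = 2.01e-06). The genes directly beside Kif21b, Cacna1s and Mroh3, had at most 1 count in an ID8 library, and Camsap2 and Ddx59 further out were not called.

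Tspan11 and Slc44a3 had neighbours that did not go down with them. Of 9 tested beside Tspan11, 5 were called higher and 1 lower, the lower one being Cracr2a, a calcium-channel regulator, at 0.3853 ± 0.212 CPM in ID8 KO and 1.242 ± 0.233 CPM in ID8 WT (log2 -1.67, SE 0.36, edgeR adjusted p = 0.00106). Tspan9, the tetraspanin directly beside Tspan11, averaged 139.0 ± 3.35 CPM in ID8 KO and 121.1 ± 7.01 CPM in ID8 WT (log2 0.20, SE 0.0501, edgeR adjusted p = 0.00296). Of 9 beside Slc44a3, 2 were called lower and 1 higher. The higher one, Tlcd4, averaged 2.733 ± 0.583 CPM in ID8 KO and 0.54 ± 0.194 CPM in ID8 WT (log2 2.33, SE 0.276, edgeR adjusted p = 2.94e-06), and Cnn3, the actin-binding calponin 3 directly beside Slc44a3, had 407.8 ± 22.1 CPM in ID8 KO and 428.6 ± 14.4 CPM in ID8 WT and was not called (edgeR adjusted p = 0.276). Around Adgrg1, 3 of 5 tested were called lower, while its direct neighbours and relatives Adgrg5 and Adgrg3 were at or near 0 in ID8. Beside Defb29 lie other beta-defensin genes, of which Defb25 alone was listed, under the count filter in ID8. In KPC, 6 of 60 tested neighbours were called lower and 4 higher, against 7.01% and 6.67% of all genes tested.

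**Figure D3:**
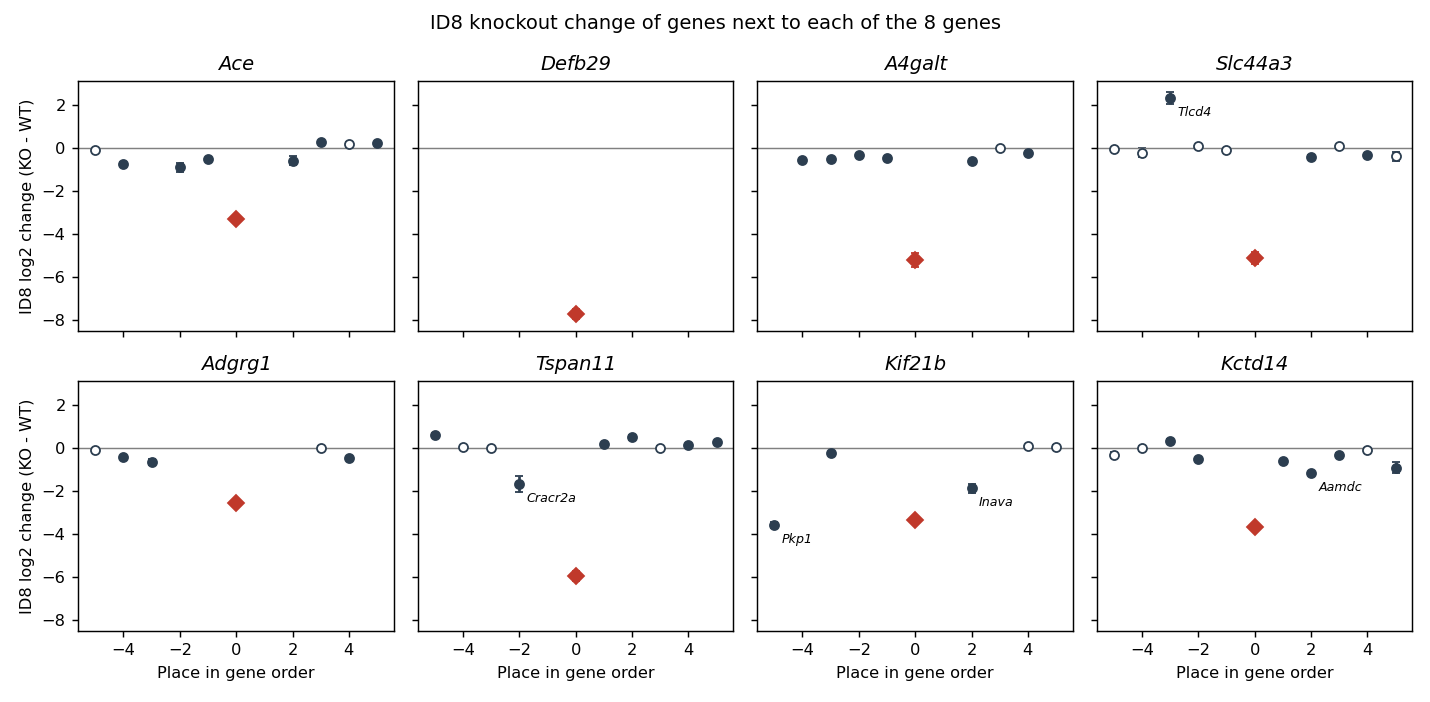
Fitted log2 change in ID8, knockout minus wild type, of each of the 8 genes (diamond at place 0) and of the neighbours tested within 5 places on either side, with bars of 1 SE; filled circles were called at adjusted p under 0.05 and open ones were not, and called neighbours with a log2 change of at least 1 either way are named. Pkp1 beside Kif21b is at the depth of the gene itself, and the other neighbours lie nearer to 0 than the gene they flank.

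Tested genes of the pathways and families of the 8 went both ways in ID8. In the passages on related genes and neighbours, means are ± SD over 3 libraries per ID8 group and 5 per KPC group. Over 10 lists, 123 related genes other than the 8 were tested in ID8, and 40 (32.5%) were called lower and 33 higher, against 25.5% and 25.4% of all genes tested, with a median log2 change of 0.01. With a log2 change of -1 or less, 11 of the 123 were called lower, against 4.11% of all genes tested. A joint fit of the 4 groups called 23 of the related genes lower and 2681 genes in all in ID8, against 6067 as reported. In KPC, 156 were tested, and 19 were called lower and 13 higher, against 7.01% and 6.67% of all genes tested.

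Among peptidases and receptors of the renin-angiotensin system, 3 of 10 tested were called lower and 2 higher in ID8 (median -0.02). Anpep, aminopeptidase N, which trims angiotensin peptides, fell to 1.7 ± 0.0834 CPM in ID8 KO, against 8.011 ± 0.192 CPM in ID8 WT (SD, n = 3 each; log2 -2.23, SE 0.135, edgeR adjusted p = 1.08e-09). In KPC it rose to 94.09 ± 19.1 CPM in KO, against 48.52 ± 18.1 CPM in WT (SD, n = 5 each; log2 0.94, edgeR adjusted p = 0.0245). The KPC call was lost when KO replicate 1 or 4, or WT replicate 1, 2 or 5, was left out, with log2 changes of 0.82 to 0.93 in those fits. Myeloid cells also carry this enzyme, and the leukocyte marker sums above covered a higher range in KPC KO; their part was not tested. Mme, neprilysin, averaged 7.395 ± 0.904 CPM in ID8 KO and 11.59 ± 0.524 CPM in ID8 WT (log2 -0.64, edgeR adjusted p = 7.88e-05), a call lost in the joint fit. It also fell in KPC, to 3.003 ± 0.793 CPM in KO, against 6.92 ± 2.06 CPM in WT (log2 -1.22, edgeR adjusted p = 0.0161). Prcp, a carboxypeptidase that cleaves angiotensin II, rose (log2 0.81, edgeR adjusted p = 1.41e-07). Of the other ACE substrates and kinin genes only Tmsb4x was tested, the thymosin precursor of an ACE substrate peptide, at 1737 ± 79.2 CPM in ID8 KO and 2953 ± 219 CPM in ID8 WT (log2 -0.76, edgeR adjusted p = 1.25e-08).

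Of 10 tested ligands and partners of ADGRG1, 4 were called lower and 2 higher (median 0.01). Col3a1, the gene of its ligand collagen III, fell to 50.97 ± 8.67 CPM in ID8 KO, against 344.2 ± 38.1 CPM in ID8 WT (log2 -2.75, SE 0.156, edgeR adjusted p = 5.52e-05). Tgm2, the gene of its other ligand transglutaminase 2, rose to 521.8 ± 16.7 CPM in ID8 KO, against 268.2 ± 7.85 CPM in ID8 WT (log2 0.96, SE 0.0466, edgeR adjusted p = 6.78e-11). Cd9, a tetraspanin found in complex with the receptor, fell (log2 -0.58, edgeR adjusted p = 3.25e-07). The receptor and its 2 ligand genes thus did not move alike.

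Of 12 tested adhesion receptors 5 were called lower and 6 higher (median 0.12). Adgre5 (CD97) fell to 15.61 ± 0.296 CPM in ID8 KO, against 43.65 ± 1.48 CPM in ID8 WT (log2 -1.48, edgeR adjusted p = 1.68e-11), and Adgrd1 fell as well (log2 -1.13, edgeR adjusted p = 2.13e-05). Celsr2, a planar polarity cadherin, rose in ID8 KO (log2 2.20, edgeR adjusted p = 1.02e-06) and fell in KPC KO (log2 -1.33, edgeR adjusted p = 0.0184). The relatives Adgrg2 and Adgrg6, named after their values had been seen, were higher in ID8 KO, with log2 changes of 0.37 and 0.46 (edgeR adjusted p = 4.26e-05 and 6.22e-05).

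Of 14 tested glycosphingolipid enzymes 6 were called lower and 4 higher (median -0.1). St8sia1, the GD3 synthase, which draws on the same lactosylceramide as A4galt through GM3, fell to 7.167 ± 0.254 CPM in ID8 KO, against 30.6 ± 1.36 CPM in ID8 WT (log2 -2.09, SE 0.0802, edgeR adjusted p = 3.76e-12). St3gal1, a sialyltransferase, rose (log2 0.66, edgeR adjusted p = 9.93e-09). The steps before and after Gb3 were looked up after their values had been seen. B4galt5, which makes lactosylceramide, was higher in ID8 KO at 270.4 ± 2.37 CPM, against 184.7 ± 7.66 CPM in ID8 WT (log2 0.55, edgeR adjusted p = 4.49e-08). Gla, the hydrolase that breaks Gb3 down, was lower at 18.33 ± 1.12 CPM in ID8 KO, against 21.82 ± 0.494 CPM in ID8 WT (log2 -0.25, edgeR adjusted p = 0.00929).

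Of 9 tested genes of choline uptake and phosphatidylcholine synthesis 3 were called lower and 1 higher (median -0.04). Pcyt1b, a regulatory enzyme of the Kennedy pathway, fell to 10.27 ± 0.381 CPM in ID8 KO, against 37.1 ± 1.12 CPM in ID8 WT (log2 -1.85, SE 0.0706, edgeR adjusted p = 3.67e-12), and also fell in KPC KO (log2 -0.85, edgeR adjusted p = 0.0249). The KPC call was lost without KO replicate 1, 4 or 5, without WT replicate 1, 2 or 5, and without the libraries rich in muscle RNA (log2 -0.96). Chpt1 and Chkb fell by small steps in ID8 KO, with log2 changes of -0.22 and -0.20 (edgeR adjusted p = 0.0109 and 0.0172), and the calls were lost without replicate 3 of either genotype for Chpt1 and without replicate 1 of either genotype for Chkb. The choline transporter-like relatives Slc44a1 and Slc44a2, looked up after their values had been seen, were not called in ID8 (log2 -0.04 and -0.05, edgeR adjusted p = 0.478 and 0.329).

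Of 32 tested kinesins 7 were called lower and 11 higher (median 0.07). The largest called changes were Kif6 (log2 -0.64, edgeR adjusted p = 0.00804), the mitotic motor Kif20b (0.53, edgeR adjusted p = 1.5e-06) and Kifc3 (-0.47, edgeR adjusted p = 6.96e-06). Kif21a, the closest relative of Kif21b, looked up after its value had been seen, averaged 26.48 ± 1.21 CPM in ID8 KO and 32.67 ± 3.86 CPM in ID8 WT (log2 -0.30, edgeR adjusted p = 0.00532).

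Of 14 tested KCTD genes 3 were called lower and 2 higher (median -0.02). Kctd17 fell to 97.32 ± 2.66 CPM in ID8 KO, against 197.0 ± 9.9 CPM in ID8 WT (log2 -1.01, edgeR adjusted p = 7.14e-11), and Kctd11, a cullin adaptor of Hedgehog signalling, fell to 55.17 ± 1.15 CPM in ID8 KO, against 111.5 ± 14.1 CPM in ID8 WT (log2 -1.01, edgeR adjusted p = 1.68e-07). Kctd5 fell less (log2 -0.27, edgeR adjusted p = 0.000994). Of 22 tested tetraspanins 8 were called lower and 5 higher (median 0.01). The urothelial and mesothelial tetraspanin Upk1b rose to 599.4 ± 27.2 CPM in ID8 KO, against 284.0 ± 16.2 CPM in ID8 WT (log2 1.08, edgeR adjusted p = 7.15e-11), Tspan13 rose (log2 0.94, edgeR adjusted p = 7.19e-05) and Tspan2 fell (log2 -0.78, edgeR adjusted p = 7.94e-06). Of the beta-defensins other than Defb29, only Defb42 was tested in ID8, at 0.2804 ± 0.109 CPM in KO and 0.684 ± 0.0609 CPM in WT (log2 -1.26, edgeR adjusted p = 0.0133; named after its value had been seen), and this call was lost with DESeq2 and without KO replicate 2.

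**Figure D4:**
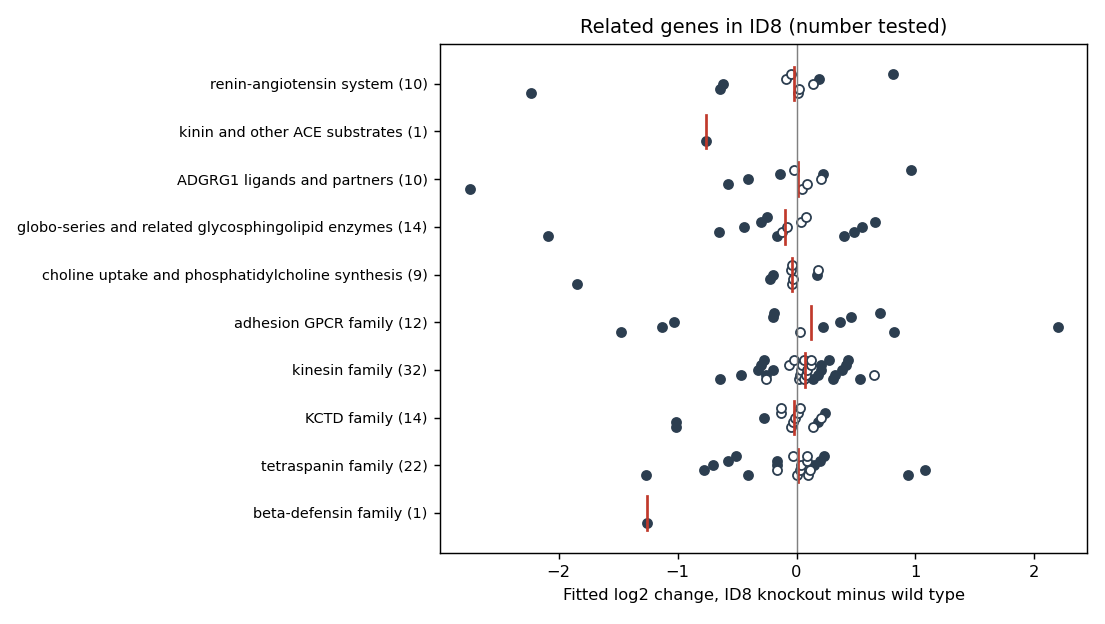
Fitted log2 change in ID8, knockout minus wild type, of the tested genes of each related list, with the 8 genes left out and the number tested in brackets; filled circles were called at adjusted p under 0.05, open ones were not, and a vertical bar marks each list's median. The points of the lists with 9 or more genes lie on both sides of 0, with medians between -0.1 and 0.12.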

How the data were processed

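The 4 tables deposited by the authors hold expected counts per gene for the 16 libraries, with 7.92% to 8.96% of values per table not whole. HISAT, RSEM 1.2.8 and GRCm39 (mm39) are named in the submitters' processing notes, and the sources used here do not say whether counting used strand. Expected counts were rounded. Each table leaves out genes at 0 in all of its samples, and these were set to 0. All 16 columns were matched to a sample by name.

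Genes were kept by filterByExpr, scaled by TMM and tested with robust quasi-likelihood fits in edgeR 4.0.16 (limma 3.58.1, R 4.3.3), for each line alone and for the difference between lines over all 16 libraries. P-values were adjusted by Benjamini and Hochberg's method over all genes tested, with a threshold of 0.05. Standard errors come from the log2 change and the square root of its F statistic. Exact 95% intervals on count ratios are Clopper-Pearson and cover counting error only. The labels do not say which cultures or animals samples came from, so p-values measure the spread between these samples. Every pair of replicates differed by more than sampling noise (lowest chi-square per gene 4.36). The procedure was tested on simulated data.

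The 8 genes and the related lists were chosen with earlier results of these data known. Named related genes are the 3 with the largest change among called genes per list whose mean log2 CPM was 1 or more, apart from 1 gene that is not reported here. Named neighbours are the nearest gene on each side and any called neighbour with a log2 change of at least 1 either way. The 2 genes closest in pattern to each of the 8 are named by Pearson's r of log2 CPM with a prior count of 2. They were sought among genes with a mean log2 CPM of 1 or more, without predicted genes, Rik genes and pseudogenes. Trp53bp1 is named in every case, and a few genes were looked up after their values had been seen, as stated beside them. Gene order and promoter windows come from RefSeq GRCm38.p6, while the counts are on a newer build, so only promoter windows carry coordinates. Overlapping genes in that table were predicted non-coding genes that had no counts here. Alternatives were median-of-ratios size factors, no filter, DESeq2 1.42.0, a joint fit of all groups, a replicate block, leaving out each library, leaving out KPC libraries with Acta1 above 1000 CPM (2 KO and 2 WT), a window of 10 places and a log2 limit of -1.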

Additional observations from a re-analysis of the deposited data

Results flagged for a closer look

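A4galt in KPC WT replicate 4 stood apart from the other 4 libraries of its group at 12.46 CPM, with a gap to the nearest library of 0.801 of the group's range, against a critical value of 0.71. Chance alone flags about 1 group in 20.

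For related genes and neighbours, the knockout change in KPC minus the knockout change in ID8 was tested over all 16 libraries with edgeR, where 11.6% of the 14921 genes tested were called with a positive difference and 10.3% with a negative one. The following differences are on the log2 scale and passed the adjusted threshold. Among peptidases and ACE substrates the difference was 3.19 for Anpep and 1.46 for Tmsb4x. Among ligands and partners of ADGRG1 it was 3.08 for Col3a1, -0.94 for Tgm2 and 0.47 for Cd9. Among glycolipid genes it was 2.66 for St8sia1 and 0.63 for Gla. Among choline genes it was 1.02 for Pcyt1b, 0.46 for Chkb and -0.39 for Slc44a2. Among adhesion receptors it was -3.5 for Celsr2, 1.84 for Adgre5, 1.52 for Adgrd1 and -1.31 for Adgrg6. Among kinesins it was -0.66 for Kif20b and 0.48 for Kifc3, the Kifc3 call being lost without ID8 replicate 1 of either genotype. Among KCTD genes and tetraspanins it was 1.37 for Kctd17, 1.61 for Kctd11 and -0.83 for Tspan13. Among neighbours it was 2.48 for Pkp1, 1.51 for Inava, 0.75 for Cyb561, 0.6 for Ints4, 2.53 for Cracr2a (lost without ID8 KO replicate 3), -0.53 for Tspan9, 0.53 for Cyb5r3 and -3.44 for Tlcd4. For Vegfa it was 1.05. Leukocyte, endothelial and muscle markers were present in KPC and at or near 0 in ID8, and their part in these differences was not tested.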

How the results depend on the processing

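Of the main results, 251 values under an alternative stayed within 1.5 times (counts) or within 1 SD of the replicates (log2 changes of the 8 genes) and 20 moved. Among the 251 are 5 KPC changes near 0 that turned sign, of Kctd14 (0.05 as reported, -0.01 without WT replicate 1 or 4 or KO replicate 4), Kif21b (-0.05 as reported, 0.03 without KO replicate 1) and Tspan11 (-0.16 as reported, 0.01 without the libraries rich in muscle RNA). With a joint fit of the 4 groups, 2681 genes were called in ID8 (6067 as reported), 3524 in KPC (1953 as reported) and 23 related genes were lower in ID8 (40 as reported). In that fit the ID8 calls of Mme, Chpt1, Chkb, Kif6, Cracr2a, Tspan9, Defb42, Kif21a, Adgrg2 and Gla were lost. DESeq2 called 3162 genes in KPC. Leaving out 1 library gave 934 (without WT replicate 1) to 3106 (without WT replicate 4) genes in KPC. It moved the ID8 log2 changes of genes resting on few KO counts, which were -6.53 to -5.75 for Tspan11, -6.12 to -4.9 for A4galt, -5.52 to -4.75 for Slc44a3 and -7.88 to -7.49 for Defb29. Of the 123 related genes tested, 11 were called lower with a log2 change of -1 or less, against 4.11% of all genes tested. Within 10 places, 45 of 102 tested neighbours were called lower, against 25.5% of all genes tested. The causes of these moves were not tested, apart from the wider window and the stricter limit, which change what is counted. For named related genes and neighbours, 80 values lost their call under an alternative and 0 turned direction (1161 kept it), mostly KPC calls when 1 library was left out. Replicate numbers did not pair the samples (same-number correlations of -0.111 to 0.135 in ID8 and -0.536 to 0.588 in KPC). With a replicate block 5852 genes were called in ID8, 1665 in KPC and 2755 for the difference (3259 as reported), and 40 related genes and 24 neighbours were lower as before. At this depth a count of 0 in a library allows up to 3 counts, or 0.1521 to 0.1676 CPM.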

Other observations

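Defb29 has been used together with Vegfa as a transgene in a derivative of ID8 made for tumour studies, and the labels name the line here as ID8 with no such addition. Vegfa, looked up after its value had been seen, averaged 195.7 ± 19.7 CPM in ID8 KO and 348.3 ± 27.8 CPM in ID8 WT (SD, n = 3 each), a log2 change of -0.83 (SE 0.0738, edgeR adjusted p = 1.84e-06). In KPC it averaged 240.8 ± 62.1 CPM in KO and 206.7 ± 38.4 CPM in WT (SD, n = 5 each) and was not called (log2 0.20, edgeR adjusted p = 0.479). Counts per gene do not tell a transgene's RNA from that of the gene itself.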
